A study of Mus musculus with 10 samples.

Results

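The 9 enzymes described here make heme or break it down, and they were measured in mouse skin that overexpresses hepcidin, the peptide hormone that restrains iron export. The set was given by gene symbol and holds 7 enzymes of synthesis (Alas1, Alad, Uros, Urod, Cpox, Ppox and Fech) and 2 of breakdown (Hmox1 and Blvrb), which is 9 of 55487 genes in the deposited tables. Skin RNA from 10 mice was sequenced, 5 mice whose genotype label reads "5 Hamp1-KI ker" (KI) and 5 wild type mice (WT). The labels give neither the construct, the promoter that drives it, the strain, the age nor the skin site, and neither "ker" nor the leading number is explained. Titles carry the prefix EAS37 (KI 1, KI 2, WT 1, WT 2 and WT 3) or EAS42 (KI 3, KI 4, KI 5, WT 4 and WT 5), whose meaning the labels do not give.

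Heme is iron held in a porphyrin ring. Its synthesis starts in mitochondria, where ALAS joins glycine and succinyl-CoA, passes through the cytosol as the ring is built, and ends in mitochondria, where ferrochelatase inserts ferrous iron. Heme oxygenase opens the ring and frees the iron, and biliverdin reductases turn biliverdin into bilirubin. Most cells start the pathway with ALAS1, while developing red blood cells use ALAS2, and a block at several of the later steps lets porphyrins build up, which in skin react with light.

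The libraries held 19.0 to 26.4 M expected counts each, and counts scaled to library size are given as CPM. Hamp, the hepcidin gene, checked the labels, at 109 ± 34.3 CPM in KI skin and 2.46 ± 0.615 CPM in WT skin (SD, n = 5 each), and its log2 fold change was 5.47 with an SE of 0.26 (edgeR adjusted p = 3.78e-06). The keratinocyte keratin Krt5 stood at 5767 ± 1099 CPM in KI and 5934 ± 943 CPM in WT, so the labelled tissue showed its defining marker in both groups. Of 7 basal keratinocyte markers, Krt5 among them, 1 was higher and 3 lower in KI (edgeR adjusted p under 0.05). Of 7 suprabasal markers, 4 were higher. Both shares were 57.1%, beside 30.9% of all genes tested, so Krt5 does not show that keratinocytes were level between groups. In bulk skin, fewer cells of a type and less RNA per cell cannot be told apart.

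Of the 9 enzymes, 4 differed between KI and WT skin. The first enzyme of the pathway, Alas1, and the sixth, Cpox, were higher in KI, and the last, Fech, and the biliverdin reductase Blvrb were lower. Alad, Uros, Urod, Ppox and Hmox1 did not pass the test. Over all genes tested, 5351 of 17321 (30.9%) passed the same threshold, an edgeR quasi-likelihood test with a Benjamini-Hochberg adjusted p under 0.05, with 15.6% higher and 15.3% lower in KI. The 4 of 9 enzymes, 2 in each direction, stand beside that background.

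The start regions of 3 of the enzymes that passed the test are shown, and Fech, which also passed, was left out. The sequences are those of the RefSeq promoter table (build GRCm38.p6, 250 bases before to 50 after each start). They read 5′ to 3′ on the gene's strand, and capitals mark matches to the 5 motifs searched on both strands. The windows are chr9:106247905-106248204 on the minus strand for Alas1 (its first of 2 entries), chr16:58669958-58670257 on the plus strand for Cpox and chr7:27447728-27448027 on the plus strand for Blvrb (its first of 2 entries).
Alas1: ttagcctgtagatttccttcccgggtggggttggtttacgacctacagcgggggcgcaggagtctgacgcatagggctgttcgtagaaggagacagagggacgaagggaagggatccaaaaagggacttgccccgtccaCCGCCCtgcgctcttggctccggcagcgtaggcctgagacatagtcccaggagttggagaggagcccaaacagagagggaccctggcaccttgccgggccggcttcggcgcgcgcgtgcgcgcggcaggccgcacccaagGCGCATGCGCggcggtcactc
Cpox: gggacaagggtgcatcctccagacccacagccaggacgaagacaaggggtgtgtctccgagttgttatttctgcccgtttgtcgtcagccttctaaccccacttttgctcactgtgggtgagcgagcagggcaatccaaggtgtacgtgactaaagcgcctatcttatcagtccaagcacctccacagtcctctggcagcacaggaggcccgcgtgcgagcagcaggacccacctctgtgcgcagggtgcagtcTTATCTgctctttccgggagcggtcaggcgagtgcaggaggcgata
Blvrb: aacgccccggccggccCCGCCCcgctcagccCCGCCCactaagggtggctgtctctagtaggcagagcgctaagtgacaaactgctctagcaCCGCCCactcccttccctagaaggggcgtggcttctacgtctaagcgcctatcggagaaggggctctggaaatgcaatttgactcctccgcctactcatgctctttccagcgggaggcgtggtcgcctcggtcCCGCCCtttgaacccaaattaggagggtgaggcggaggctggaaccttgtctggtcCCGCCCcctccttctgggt
The Alas1 window held GCATGCGC, the core letters bound by nuclear respiratory factor 1, as 2 overlapping matches on opposite strands, 30 and 32 bases after the start, and 2.71% of 32851 promoters in the table held it. It also held 1 GC box (GGGCGG, in 35.7% of promoters), 111 bases before the start. The Blvrb window held 5 GC boxes, and the Cpox window held none of them but 1 match to the GATA motif AGATAA on the reverse strand, 5 bases after the start (in 11.2% of promoters). The windows were 65.3% G and C for Alas1, 58.7% for Cpox and 63.0% for Blvrb, against a median of 52.7% over the table. Fech and Hmox1 were not searched. No window of the other 7 enzymes held the antioxidant response element core TGACNNNGC (in 12.4% of promoters) or the motif AGGTCA of the ROR and REV-ERB receptors (in 16.3%). A match is a match of letters and was not tested as a binding site.

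Alas1 encodes the housekeeping 5-aminolevulinate synthase, the step that sets the pace of heme synthesis outside red blood cells. In KI 1 to KI 5, Alas1 stood at 80.1, 64.1, 60.95, 64.2 and 59.4 CPM, against 50.04, 49.7, 50.6, 42.5 and 49.8 CPM in WT 1 to WT 5. Every KI library was above every WT library, with KI 1 the highest and WT 4 the lowest. The log2 fold change was 0.44 with an SE of 0.09 (1.36-fold higher; edgeR adjusted p = 0.00629), and Alas1 was also higher within both title prefixes. In TPM, a scale that divides by transcript length as well as library size, Alas1 averaged 70.98 ± 3.31 in KI and 57.4 ± 7.45 TPM in WT (SD, n = 5 each), again without overlap. The red blood cell isozyme Alas2 stood far lower, at 6.29 ± 2.94 TPM in KI and 7.29 ± 2.59 TPM in WT, and did not pass the test (log2 fold change -0.27 ± 0.25 SE, edgeR adjusted p = 0.430).

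Cpox encodes coproporphyrinogen oxidase, the enzyme of the space between the mitochondrial membranes that acts sixth in the pathway. Cpox was measured at 41.6, 42.5, 40.6, 39.3 and 33.9 CPM in KI 1 to KI 5, against 32.6, 26.6, 27.5, 31.96 and 23.9 CPM in WT 1 to WT 5. The lowest KI library, KI 5, lay just above the highest WT library, WT 1, so the groups did not overlap in CPM. The log2 fold change was 0.47 with an SE of 0.10 (1.39-fold higher; edgeR adjusted p = 0.00682). In TPM the groups overlapped, since KI 2 and KI 5 held 19.9 and 18.1 TPM, against 20.1 TPM in WT 1, and the means were 20.6 ± 1.54 TPM in KI and 15.6 ± 2.72 TPM in WT. Cpox was among the lowest of the 9 enzymes per length in both groups.

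Fech encodes ferrochelatase, which places iron into protoporphyrin in the final step. The 5 KI libraries, in their numbered order, held 40.2, 36.03, 54.9, 40.7 and 48.6 CPM of Fech, against 59.3, 63.3, 56.5, 62.1 and 65.9 CPM in the 5 WT libraries. All KI libraries were below all WT libraries, with KI 3 the nearest to them at 54.9 CPM against 56.5 CPM in WT 3. The log2 fold change was -0.48 with an SE of 0.11 (0.718 of WT; edgeR adjusted p = 0.00964). Per length, Fech averaged 28.7 ± 5.66 TPM in KI and 43.4 ± 4.399 TPM in WT, and no KI library reached a WT library there either. Alas1, Cpox and Fech were the 3 of 9 enzymes whose groups did not overlap in CPM, beside 20.3% of all genes tested.

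**Figure D1:**
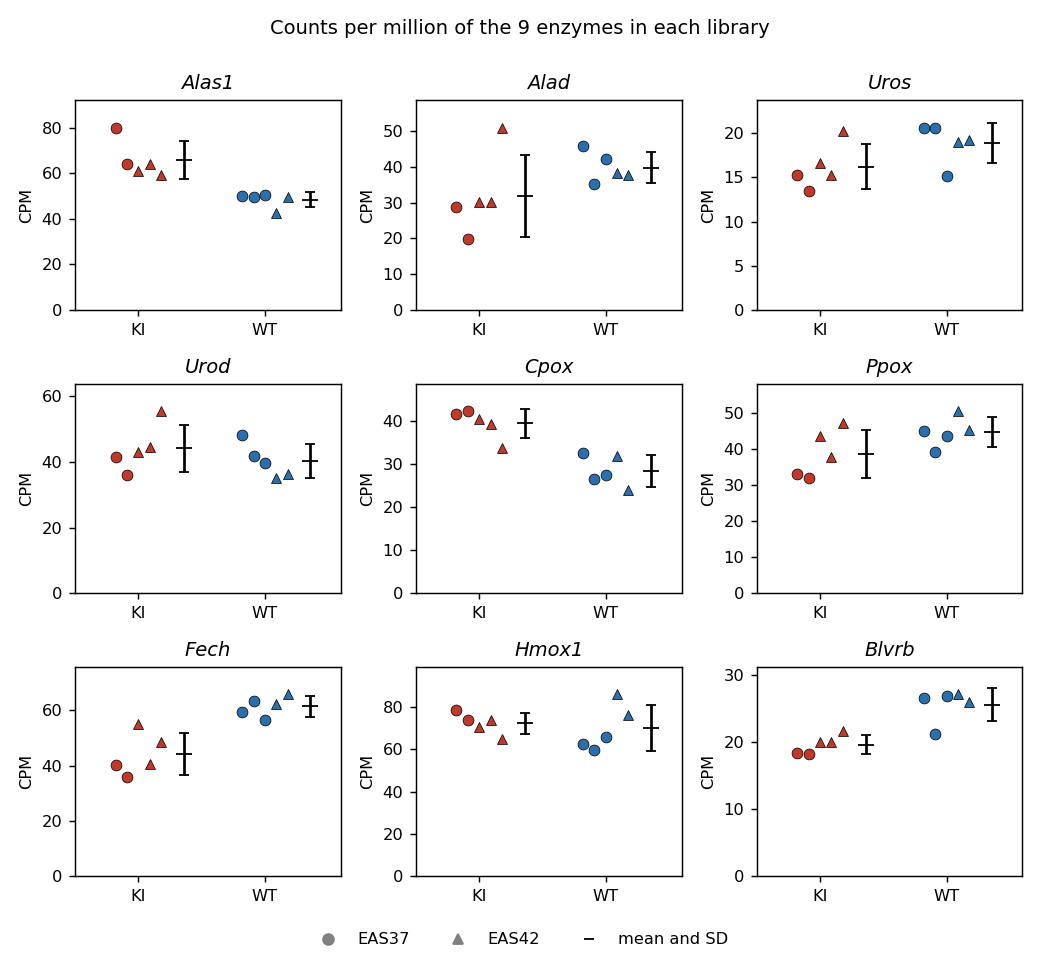
CPM (linear axes from 0) of the 9 enzymes in each of 5 KI libraries (left of each panel) and 5 WT libraries (right), with circles for EAS37, triangles for EAS42 and the mean with its SD beside them. KI and WT do not overlap for Alas1, Cpox and Fech, and KI 5 stands above the other KI libraries for Alad (50.9 CPM) and Urod (55.6 CPM).

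Alad, Uros and Urod act in the cytosol, where the porphyrin ring is built and trimmed, and none of these 3 passed the test. Alad, aminolevulinate dehydratase, joins pairs of aminolevulinate into porphobilinogen. Per library, Alad came to 28.7, 19.8, 30.3, 30.1 and 50.9 CPM in KI (KI 1 first), against 45.9, 35.1, 42.2, 38.1 and 37.6 CPM in WT (WT 1 first). The groups overlapped because of KI 5, which was above all WT libraries while KI 1 to KI 4 were below all of them. The log2 fold change was -0.32 with an SE of 0.21 (95% interval -0.77 to 0.14; edgeR adjusted p = 0.259), and without KI 5 it was -0.53 (edgeR adjusted p = 0.0133). Alas2 was also highest among KI libraries in KI 5, at 7.45 CPM against 4.69 to 5.80 CPM in the other 4, and so was the mean log2 CPM of the red blood cell marker list, at 6.24 against 4.53 to 5.96. WT 2 and WT 4 had higher levels of that list (6.47 and 6.32) without being the highest WT libraries for Alad. The sebaceous gland list was highest in KI 5 as well, at 8.09 against 6.46 to 7.28 in the other KI libraries. The part of these levels in the Alad value of KI 5 was not tested.

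Uros, uroporphyrinogen synthase, closes the ring. In KI 1 to KI 5, Uros stood at 15.3, 13.5, 16.7, 15.3 and 20.3 CPM, against 20.6, 20.6, 15.1, 18.96 and 19.2 CPM in WT 1 to WT 5. The groups overlapped widely, with every KI library but KI 2 within the WT range, and the log2 fold change was -0.22 with an SE of 0.13 (95% interval -0.50 to 0.05; edgeR adjusted p = 0.197). Urod, uroporphyrinogen decarboxylase, trims the side chains of the ring. Urod was measured at 41.5, 35.98, 42.9, 44.7 and 55.6 CPM in KI 1 to KI 5, against 48.2, 41.8, 39.8, 35.03 and 36.4 CPM in WT 1 to WT 5. Groups overlapped widely, and the log2 fold change was 0.13 with an SE of 0.12 (95% interval -0.14 to 0.40; edgeR adjusted p = 0.429).

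Ppox, protoporphyrinogen oxidase of the inner mitochondrial membrane, makes the substrate of ferrochelatase. The 5 KI libraries, in their numbered order, held 32.95, 31.9, 43.5, 37.8 and 47.2 CPM of Ppox, against 44.8, 39.2, 43.6, 50.5 and 45.2 CPM in the 5 WT libraries. KI 1, KI 2 and KI 4 were below all WT libraries, while KI 3 and KI 5 lay within the WT range. The log2 fold change was -0.21 with an SE of 0.12 (95% interval -0.47 to 0.05; edgeR adjusted p = 0.197). With the title prefix as a covariate Ppox passed the test, at -0.28 (edgeR adjusted p = 0.0298).

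Heme oxygenase 1, encoded by Hmox1, is the inducible enzyme that opens the heme ring. Per library, Hmox1 came to 78.3, 73.96, 70.5, 73.6 and 64.8 CPM in KI (KI 1 first), against 62.4, 59.6, 65.9, 86.02 and 76.1 CPM in WT (WT 1 first). The KI libraries all lay within the WT range, and the log2 fold change was 0.05 with an SE of 0.10 (95% interval -0.18 to 0.27; edgeR adjusted p = 0.766). That interval allows changes of up to 0.27 on the log2 scale upward and 0.18 downward, and does not show that the groups were equal. The constitutive isozyme Hmox2 averaged 42.7 ± 2.05 CPM in KI and 37.1 ± 1.84 CPM in WT and was higher in KI, with a log2 fold change of 0.20 with an SE of 0.06 (edgeR adjusted p = 0.0335), a call lost in 13 of 25 alternatives.

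Blvrb encodes biliverdin reductase B, which in adult tissue also acts as a flavin reductase. In KI 1 to KI 5, Blvrb stood at 18.5, 18.3, 20.1, 20.02 and 21.6 CPM, against 26.7, 21.3, 26.9, 27.2 and 26.0 CPM in WT 1 to WT 5. The KI libraries lay below the WT libraries except for WT 2, which KI 5 exceeded at 21.6 CPM. The log2 fold change was -0.38 with an SE of 0.09 (0.768 of WT; edgeR adjusted p = 0.00991). Blvra, the reductase that makes bilirubin IX-alpha, stood at 18.5 ± 2.68 CPM in KI and 15.2 ± 2.56 CPM in WT, and did not pass the test (0.28 ± 0.14 SE; edgeR adjusted p = 0.152). The ratio of Blvrb to Blvra within a library, in TPM, averaged 1.42 in KI (range 1.04 to 1.74) and 2.30 in WT (1.80 to 3.27). The mean log2 ratio was lower in KI by a difference of -0.68 (exact two-sided permutation test, p = 0.00794, the smallest that 5 against 5 libraries allow, and 0.0159 after adjustment over the 2 ratios tested). The other ratio, Hmox1 over Hmox2, averaged 1.56 in KI and 1.73 in WT, a log2 difference of -0.14 (exact two-sided permutation test, p = 0.357, adjusted p = 0.357).

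Levels of different genes were compared in TPM. In KI skin, Alas1 (71.0), Hmox1 (67.1) and Urod (64.7 TPM) led, followed by Alad (38.3), Blvrb (33.7), Fech (28.7), Ppox (20.7), Cpox (20.6) and Uros (13.7 TPM). The ranges of all 8 pairs of neighbours in that order overlapped across libraries. Within each of the 5 KI libraries, Alas1 was above Hmox1, Urod above Alad, Blvrb above Fech and Fech above Ppox. Ppox was above Cpox in 2 of 5, and the other steps held in 4 of 5. In WT skin the order was Hmox1 (68.8), Urod (62.1), Alas1 (57.4), Alad (49.9), Blvrb (46.8), Fech (43.4), Ppox (25.6), Uros (17.3) and Cpox (15.6 TPM), and the steps from Fech to Ppox and from Ppox to Uros were those whose ranges did not overlap. Within each of the 5 WT libraries, Alas1 was above Alad, Fech above Ppox and Ppox above Uros, and the other steps held in 3 or 4. Summed over the 7 synthesis enzymes, TPM was 258 ± 38.1 in KI and 271 ± 19.9 in WT (SD, n = 5 each), with overlapping ranges. Within that sum, Alas1 made up 28.1% ± 4.55 in KI and 21.2% ± 2.28 in WT, and the ratio of Fech to Alas1 was 0.406 ± 0.0874 in KI and 0.773 ± 0.170 in WT. KI ratios of Fech to Alas1 lay between 0.327 and 0.505 and WT ratios between 0.604 and 1.01. These sums and ratios are descriptions of the levels above and were not tested.

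**Figure D2:**
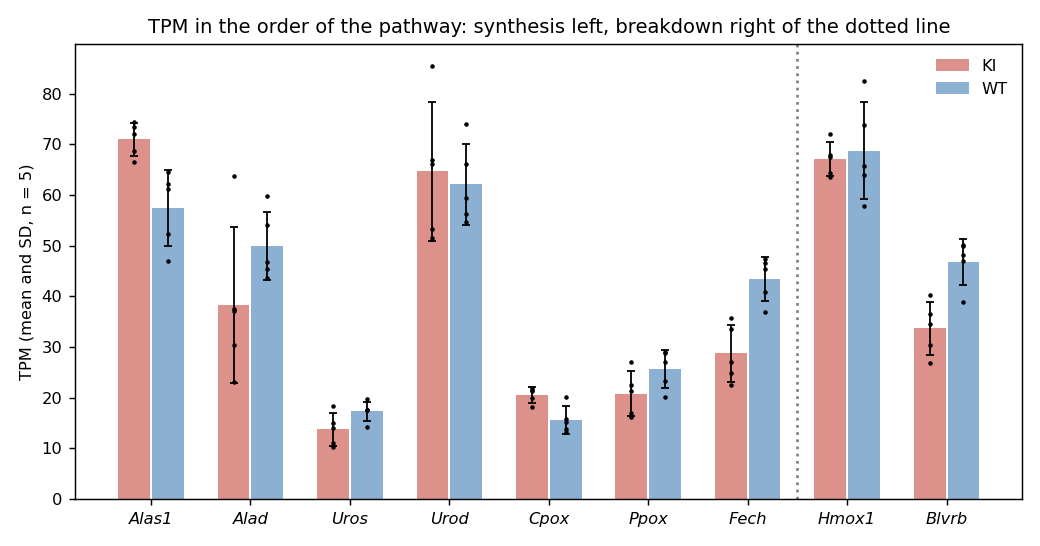
Mean TPM (linear axis from 0; SD as bars, n = 5; points are libraries) of the 7 synthesis enzymes in pathway order and of Hmox1 and Blvrb right of the dotted line, with KI left of WT. Alas1 is higher in KI (71.0 against 57.4 TPM) at the start of the pathway, and Fech is lower (28.7 against 43.4 TPM) at its end.

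The KI effect was also estimated within each title prefix in a model with an interaction. With EAS37 (2 KI and 3 WT libraries), 7 of 9 enzymes passed the threshold, beside 35.8% of all genes, with Alas1, Cpox and Hmox1 higher and Alad, Ppox, Fech and Blvrb lower. With EAS42 (3 KI and 2 WT libraries), 2 of 9 passed, beside 15.1% of all genes, with Alas1 higher (log2 fold change 0.42; edgeR adjusted p = 0.0346) and Fech lower (-0.41; edgeR adjusted p = 0.0495). Cpox was 0.54 with EAS37 and 0.44 with EAS42, and Blvrb was -0.44 with EAS37 and -0.37 with EAS42. Of 9 enzymes, 7 had the same sign with both prefixes, and Urod and Hmox1 did not. No enzyme passed the test of the difference between prefixes (0 of 9 by edgeR, beside 0.866% of all genes). At an unadjusted p under 0.05 there were 2 of 9 enzymes, beside 3066 of 17321 genes.

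Those 2 were Hmox1 and Urod. Within EAS37, Hmox1 stood at 78.3 and 74.0 CPM in KI and at 62.4, 59.6 and 65.9 CPM in WT. Within EAS42 it stood at 70.5, 73.6 and 64.8 CPM in KI and at 86.0 and 76.1 CPM in WT. KI libraries were thus all above WT with one prefix and all below WT with the other, and the difference of the log2 fold changes was -0.50 with an SE of 0.13 (edgeR adjusted p = 0.0961). Urod had -0.16 within EAS37 and 0.42 within EAS42 on the log2 scale, a difference of 0.58 (edgeR adjusted p = 0.164).

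**Figure D3:**
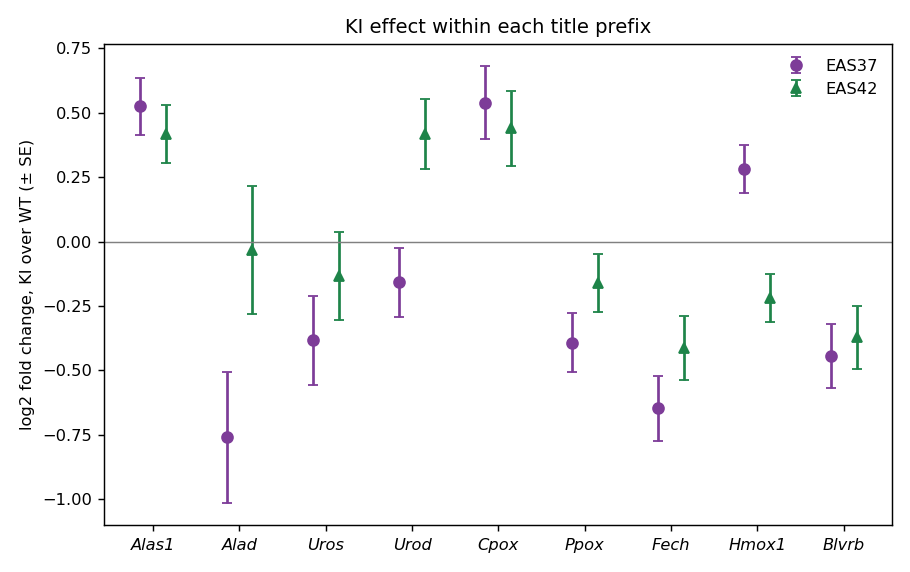
Log2 fold change of KI over WT (± SE, from the edgeR model with an interaction) of each enzyme with EAS37 (circles) and EAS42 (triangles). Alas1 and Cpox are above 0 and Fech and Blvrb below 0 with both prefixes, while Hmox1 is 0.28 with EAS37 and -0.22 with EAS42.

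Marker lists of other cell types and states were measured in the same libraries. Of the skeletal muscle list, 3 of 20 genes tested (15%) were lower in KI, a share near the 15.3% over all genes, and its median log2 fold change was -1.32. Its summed level was 3054 to 33111 TPM in KI and 33204 to 56331 TPM in WT. Of the adipocyte list, 8 of 12 were lower, at 949 to 1743 TPM in KI and 2525 to 3574 TPM in WT, and of the endothelial list 9 of 10 were lower, at 68.7 to 108 TPM in KI and 131 to 173 TPM in WT. Of the activated keratinocyte list, 7 of 8 were higher, at 4214 to 12307 TPM in KI and 886 to 3860 TPM in WT, and all 15 of 15 cell cycle genes were higher. With the muscle level as a covariate, 0 of 9 enzymes passed by edgeR, beside 2.56% of all genes. At an unadjusted p under 0.05 there were 3 of 9, beside 3262 of 17321 genes. The log2 fold changes were 0.37 for Alas1, 0.36 for Cpox, -0.18 for Fech and -0.32 for Blvrb. With the adipocyte level as a covariate, an alternative chosen after the data were seen, 0 of 9 passed, beside 0.878% of all genes. Here 2 of 9 had an unadjusted p under 0.05, beside 2565 of 17321 genes. Alas1, Cpox, Fech and Blvrb stood at 0.42, 0.48, -0.43 and -0.24. The muscle covariate, the mean log2 CPM of the list, overlapped between the genotypes in 1 KI library, with KI 3 at 9.92 against 9.80 in WT 1 and 9.82 in WT 3. The adipocyte covariate did not overlap, at 5.42 to 6.22 in KI and 6.36 to 7.09 in WT. Both levels thus largely follow genotype, and these fits cannot tell level and genotype apart. The parts of muscle and fat in the results of the 4 enzymes were not tested.

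Red blood cell precursors carry ALAS2, and red blood cells hold much BLVRB. Of the 9 red blood cell markers in the files, 5 were tested and none passed by edgeR, with summed levels of 866 to 2551 TPM in KI and 1120 to 3368 TPM in WT, and Epb42, Rhag and Klf1 were among the 4 below the filter on low counts. With that level as a covariate, also chosen after the data were seen, Alas1, Cpox, Fech and Blvrb all passed (edgeR adjusted p between 0.0210 and 0.0237). Over all genes, 3825 of 17321 passed in that fit. Macrophages, which hold much heme oxygenase 1, had 2 of 11 markers higher in KI (18.2%), a share near the 15.6% over all genes. The list summed to 289 to 538 TPM in KI and 218 to 412 TPM in WT. The part of macrophages in the Hmox1 values was not tested.

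**Figure D4:**
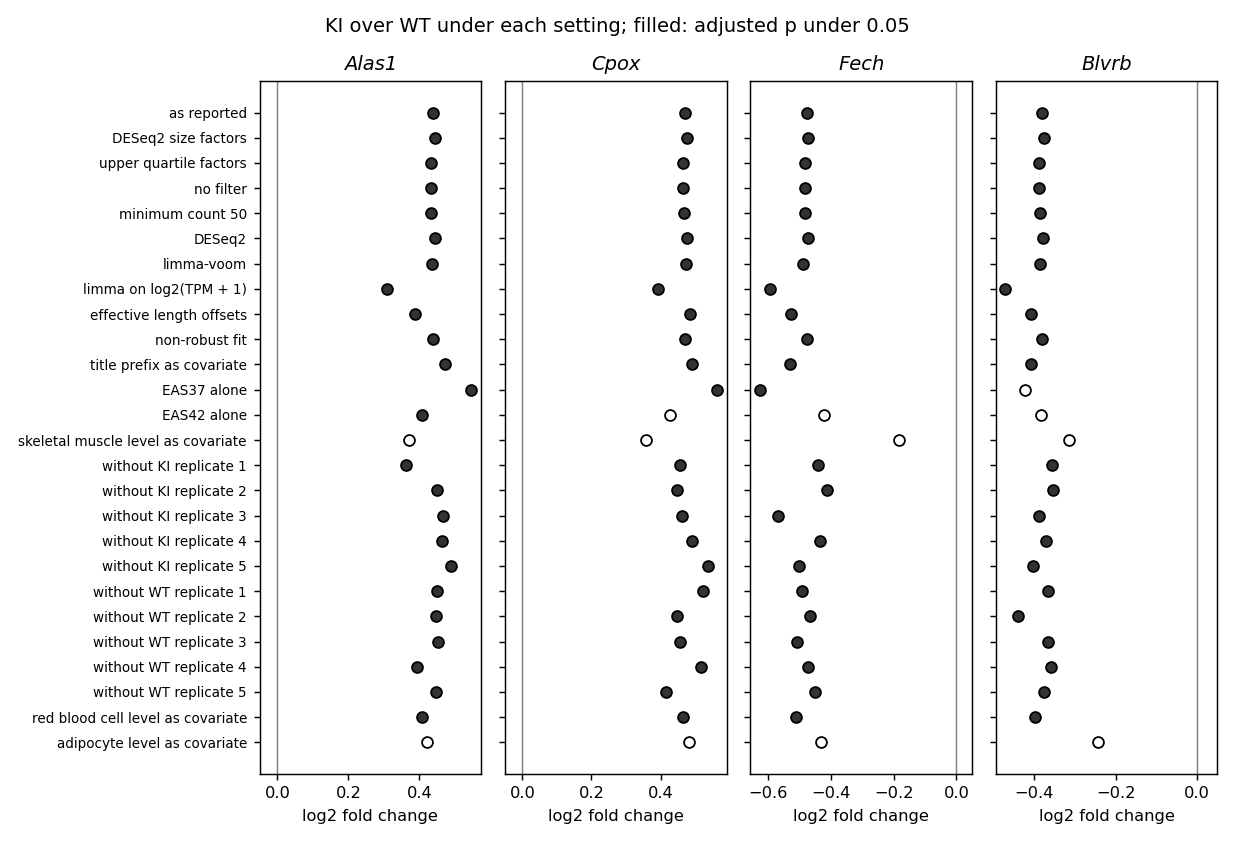
Log2 fold change of KI over WT of Alas1, Cpox, Fech and Blvrb under the reported settings and 25 alternatives (one per row; filled points have an adjusted p under 0.05). Signs are the same in every row, and all 4 points are open with the skeletal muscle or the adipocyte level as a covariate. Both levels largely follow genotype, so those rows cannot tell level and genotype apart.

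Heme genes outside the 9 were taken from 6 lists of 41 genes, of which 40 were tested. KI skin was higher in 6 of them and lower in 6, and 28 did not pass, with a median log2 fold change of 0.05 beside -0.01 over all genes. The 12 calls are 30.0% of those tested, a share near the 30.9% over all genes, so the genes named below do not set the lists apart from other genes. Without KI 2 the count of calls was 6 in place of 12. All 3 calls among 10 mitochondrial transport genes were higher in KI. They were Tmem14c, which carries porphyrin precursors across the inner membrane (58.1 ± 8.20 CPM in KI, 46.2 ± 2.65 CPM in WT; 0.33 ± 0.10 SE, edgeR adjusted p = 0.0256), the iron importer mitoferrin 2 (Slc25a28; 51.7 ± 4.86 CPM in KI, 41.1 ± 2.24 CPM in WT; 0.33 ± 0.08 SE, edgeR adjusted p = 0.0103) and the glutathione carrier Slc25a39 (87.96 ± 11.4 CPM in KI, 71.2 ± 6.46 CPM in WT; 0.30 ± 0.10 SE, edgeR adjusted p = 0.0354).

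Both calls among 10 genes of cell transport and binding were lower in KI. Slc48a1, which moves heme out of endosomes and lysosomes, stood at 67.6 ± 6.95 CPM in KI and 86.02 ± 8.88 CPM in WT (-0.35 ± 0.09 SE, edgeR adjusted p = 0.0176). Abcc5, an ABC transporter that exports heme in worms, stood at 93.01 ± 24.6 CPM in KI and 157 ± 9.45 CPM in WT (-0.75 ± 0.16 SE, edgeR adjusted p = 0.00623). None of the 4 heme scavenging genes passed by edgeR (Hp, Hpx, Lrp1 and Cd163). Among 3 genes of heme a and c, Cox15, which makes heme a for cytochrome oxidase, was lower in KI, at 24.04 ± 2.58 CPM in KI and 30.2 ± 2.51 CPM in WT (-0.33 ± 0.09 SE, edgeR adjusted p = 0.0223).

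Of 8 regulators tested, 2 were higher and 3 lower in KI. Bach1, a repressor of Hmox1 that heme inactivates, changed the most among the higher ones. Bach1 was measured at 89.98, 105, 90.03, 103 and 75.4 CPM in KI 1 to KI 5, against 66.4, 66.9, 64.2, 57.5 and 57.4 CPM in WT 1 to WT 5. Every KI library was above every WT library, and the log2 fold change was 0.57 with an SE of 0.10 (edgeR adjusted p = 0.00254). Nfe2l2, which encodes the Hmox1 activator NRF2, stood at 89.0 ± 11.1 CPM in KI and 72.6 ± 6.80 CPM in WT (0.29 ± 0.10 SE, edgeR adjusted p = 0.0450), a call lost in 16 of 25 alternatives. The lower ones were Bach2, a relative of Bach1 (8.85 ± 2.62 CPM in KI, 17.8 ± 3.88 CPM in WT; -1.005 ± 0.21 SE, edgeR adjusted p = 0.00687), Nr1d1, which encodes the heme sensing receptor REV-ERB-alpha (42.2 ± 10.6 CPM in KI, 84.1 ± 27.8 CPM in WT; -0.99 ± 0.24 SE, edgeR adjusted p = 0.0131), and Ppargc1a, whose product drives Alas1 in liver (7.28 ± 2.34 CPM in KI, 12.2 ± 2.81 CPM in WT; -0.74 ± 0.23 SE, edgeR adjusted p = 0.0304). Gata1 was too low to be tested.

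**Figure D5:**
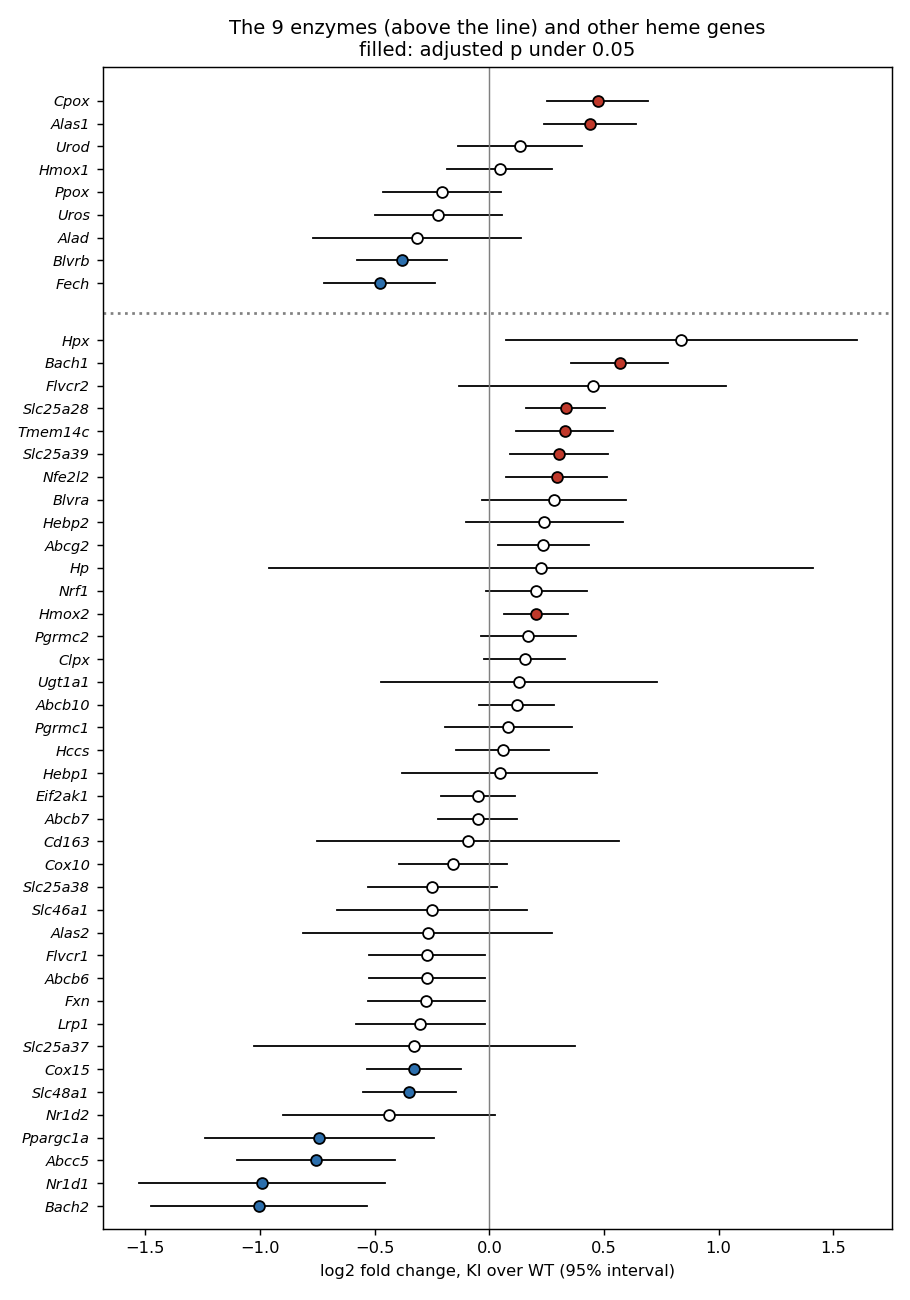
Log2 fold change of KI over WT with its 95% interval (edgeR) for the 9 enzymes (above the dotted line) and 39 of the 40 other heme genes tested, filled where the adjusted p was under 0.05 (red higher, blue lower in KI). The 4 called enzymes lie between -0.48 (Fech) and 0.47 (Cpox), and the calls among the other genes lie between -1.005 (Bach2) and 0.57 (Bach1).

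For each of the 4 enzymes that passed, the pair of tested genes with the most similar profile was found by the root mean square difference of centred log2 CPM over the 10 libraries. They were Imp4 (0.0650) and Tmem19 (0.0652) for Alas1, and Snd1 (0.0839) and Slc35c1 (0.0943) for Cpox. For Fech they were Mef2d (0.0615) and Ulk2 (0.0622), and for Blvrb Pgghg (0.0549) and Epn2 (0.0628). The median over all tested genes was 0.390 for Alas1, 0.407 for Cpox, 0.421 for Fech and 0.370 for Blvrb.

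The 9 genes lie on 7 chromosomes of GRCm38, per the GENCODE M21 annotation. Those that passed the test are Alas1 (ENSMUSG00000032786, chromosome 9, 106233455 to 106248654, minus strand), Cpox (ENSMUSG00000022742, chromosome 16, 58670292 to 58717636, plus strand), Fech (ENSMUSG00000024588, chromosome 18, 64452914 to 64490251, minus strand) and Blvrb (ENSMUSG00000040466, chromosome 7, 27447978 to 27466144, plus strand). The others are Alad (ENSMUSG00000028393, chromosome 4, 62509169 to 62519918, minus), Uros (ENSMUSG00000030979, chromosome 7, 133686243 to 133710072, minus), Urod (ENSMUSG00000028684, chromosome 4, 116989965 to 116994413, minus), Ppox (ENSMUSG00000062729, chromosome 1, 171275990 to 171281186, minus) and Hmox1 (ENSMUSG00000005413, chromosome 8, 75093621 to 75100589, plus). Uros overlaps Bccip by 740 bases and Ppox overlaps B4galt3 by 907 bases on the opposite strand, and both neighbours are expressed, so their counts carry some uncertainty where the strand setting of the counting is not given. Alas1 and Cpox overlap 4930500F10Rik and Gpr15, which held at most 4 and 16.2 counts summed over a group.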

How the data were processed

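Trizol extracts of skin (250 ng of total RNA) entered a stranded Illumina mRNA kit, per the labels' protocols, and each mouse gave 1 library. Genotype came from the genotype label, and replicate numbers, given in accession order, pair nothing. Tools listed without a role in the submitters' processing notes are FastQC and featureCounts, STAR 2.5.2b, DESeq2 1.14.1 and Picard 2.8.1, with the build GRCm38. The deposited tables look like RSEM gene output. Per the file headers, the authors made expected counts, TPM, FPKM and effective lengths. Which annotation release and strand setting they used is not given in the sources used here.

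Deposited expected counts were rounded to whole numbers, TPM of the authors served for levels between genes, deposited effective lengths entered an alternative, and the deposited FPKM were left aside. GENCODE M21 named 55141 of 55487 identifiers. Depth was 19.0 to 26.4 M expected counts per library, with 284 to 2269 per enzyme and library. No library repeated another within sampling noise.

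The filter filterByExpr (minimum count 10 and minimum total 15) kept 17321 genes, all 9 enzymes among them. The genotype test was edgeR 4.0.16's robust quasi-likelihood test in R 4.3.3 on TMM-normalized counts, adjusted by Benjamini-Hochberg over all genes, threshold 0.05. CPM use TMM library sizes. Prefix effects were coefficients of an interaction model. The ratios of Hmox1 to Hmox2 and of Blvrb to Blvra were tested by exact permutation over 252 assignments. Of these tests, only the genotype test was tried on simulated counts.

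Named were all 9 enzymes, called genes of the heme lists, Alas2, Hmox2, Blvra, Bach1, Nfe2l2, Hamp and the 2 nearest profiles of each called enzyme. A gene that the rule also names is not reported here. Other names are marker genes or genes named after their values were seen. The enzymes and the lists were chosen with earlier results of these data known. Alternatives were other normalizations and filters, DESeq2 1.42.0, limma 3.58.1 (voom, or log2(TPM + 1)), effective length offsets, a non-robust fit, the prefix as covariate or each prefix alone, muscle, red blood cell or adipocyte level as covariate, and each library left out.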

Additional observations from a re-analysis of the deposited data

Results flagged for a closer look

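Within the groups of 5 libraries, 32 sets of values were scanned for a single library far from the rest, and 4 were flagged, where chance flags about 5% of sets. Alas1 in KI 1 stood at 80.1 CPM, above 59.4 to 64.2 CPM in the other KI libraries, although its TPM of 74.4 was close to the 73.3 TPM of KI 4. Alas1 in WT 4 stood at 42.5 CPM, below 49.7 to 50.6 CPM in the other WT libraries. Blvrb in WT 2 stood at 21.3 CPM, below 26.0 to 27.2 CPM in the other WT libraries. Hamp in KI 2 stood at 168.9 CPM, above 85.6 to 104 CPM in the other KI libraries.

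Hmox1 moved in opposite directions with the 2 title prefixes, with a difference of the log2 fold changes (EAS42 minus EAS37) of -0.50, tested as an interaction and not past the adjusted threshold (edgeR adjusted p = 0.0961).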

How the results depend on the processing

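Over 25 alternatives, the log2 fold change of Alas1 stayed between 0.31 and 0.55, that of Cpox between 0.36 and 0.56, that of Fech between -0.63 and -0.18 and that of Blvrb between -0.47 and -0.24. Calls were lost in 2 of them for Alas1, 3 for Cpox, 3 for Fech and 4 for Blvrb, and the cause was not tested. With EAS42 alone, 2488 of all genes, 1 of 9 enzymes (Alas1) and 6 other heme genes passed. With the muscle level as a covariate 443 of all genes passed and 0 enzymes and 0 other heme genes. With the adipocyte level (chosen after the data were seen) 152 of all genes passed and again 0 and 0. Both levels largely follow genotype, so these fits cannot tell level and genotype apart. With EAS37 alone 5 of 9 enzymes passed, beside 5064 of 17827 genes. Blvrb was not among the 5 (-0.42, edgeR adjusted p = 0.0684). Leaving out each library gave 3821 to 5850 calls over all genes, 4 to 5 enzymes and 6 to 12 other heme genes. Alad passed in 2 alternatives and Ppox in 2, and with the muscle level the values of Alad (0.06), Uros (0.01) and Ppox (0.03) turned positive. Among other heme genes, calls were lost most often for Nfe2l2 (16 of 25) and Hmox2 (13 of 25). The log2 difference of Blvrb over Blvra was -0.83 with EAS37 alone and -0.67 with EAS42 alone, each at p = 0.1, the smallest that an exact test of 10 assignments allows, and -0.76 to -0.55 with libraries left out. No paired analysis was possible because the labels give no pairs of mice.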

Other observations

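A list of 22 genes of heme-carrying proteins, with the flavoprotein Por that passes electrons to some of them, had 20 genes tested, 3 higher and 3 lower in KI skin. That is 30.0% called, near the 30.9% over all genes, and the median log2 fold change was 0.03 beside -0.01 over all genes. The genes named here were chosen after their values were seen. The higher ones were the sterol demethylase Cyp51 (234 ± 26.7 CPM in KI and 103 ± 22.3 CPM in WT; 1.18 ± 0.15 SE, edgeR adjusted p = 0.000629), cytochrome b5 (Cyb5a; 134 ± 10.9 CPM in KI and 109 ± 8.81 CPM in WT; 0.30 ± 0.08 SE, edgeR adjusted p = 0.0190) and Cyba, a subunit of the phagocyte oxidase (14.1 ± 1.72 CPM in KI and 10.2 ± 2.07 CPM in WT; 0.46 ± 0.15 SE, edgeR adjusted p = 0.0379). Of the 10 genes of the neutrophil list, 4 passed the filter on low counts and were higher in KI (median log2 fold change 4.59). Their mean log2 CPM was 2.09 to 3.92 in KI and -1.31 to -0.22 in WT. Genes so low in WT could pass the filter through KI alone, so these calls are no test of the list. S100a8 and S100a9 are also on the activated keratinocyte list. The whole list summed to 92.2 to 349 TPM in KI and 6.75 to 16.8 TPM in WT, with Ly6g at 0 in all libraries. The part of neutrophils in the Cyba value was not tested. The lower ones were catalase (Cat; 127 ± 26.4 CPM in KI and 168 ± 20.9 CPM in WT; -0.40 ± 0.14 SE, edgeR adjusted p = 0.0483), cytoglobin (Cygb; 19.1 ± 3.36 CPM in KI and 30.2 ± 3.01 CPM in WT; -0.66 ± 0.12 SE, edgeR adjusted p = 0.00368) and the endothelial nitric oxide synthase Nos3 (6.64 ± 1.21 CPM in KI and 10.5 ± 2.28 CPM in WT; -0.66 ± 0.18 SE, edgeR adjusted p = 0.0194). Endothelial markers were lower in 9 of 10 cases, beside 15.3% of all genes. The part of endothelial cells in the Nos3 value was not tested.

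Of 13 NRF2 target genes other than Hmox1, 4 were higher in KI (Nqo1, G6pdx, Tkt and Akr1b8) and 1 was lower (Gstm1), which is 38.5% called beside 30.9% over all genes, with a median log2 fold change of 0.36. Nqo1 stood at 15.5 ± 2.89 CPM in KI and 9.15 ± 2.40 CPM in WT (0.76 ± 0.20 SE, edgeR adjusted p = 0.0165).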
